A study of Mus musculus with 6 samples.

Results

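A set of 10 genes of the p53 pathway was followed in hepatocytes of undamaged and regenerating mouse liver. They are Trp53, which encodes p53 itself, its inhibitors Mdm2 and Mdm4, and the p53 targets Bax, Bbc3, Phlda3, Ccng1, Eda2r, Zmat3 and Gadd45a. The genes were selected by gene name, with earlier results of these data known, and all 10 members were found among the 55450 gene identifiers of each count file. Partial hepatectomy (PHx) is surgery that takes out the larger share of the liver, after which the remaining hepatocytes re-enter the cell cycle. Hepatocytes of C57BL/6 mice, 10 to 12 weeks old per the labels and male per the study's methods, which name the substrain C57BL/6J and a slightly younger age, were isolated by collagenase perfusion from undamaged liver (0 h) or 48 h after PHx. All mice received normal diet. At each time point 3 preparations, described in the study as biological replicates, were sequenced as bulk RNA-Seq. No sham-operated group was analysed here, so surgery and regeneration cannot be told apart, and no other time after PHx was analysed here.

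p53 is a transcription factor that is kept at a low level in unstressed cells, because Mdm2 marks it for degradation and Mdm4 binds and blocks it. DNA damage and other stress free p53 from these inhibitors, largely without a change in its own mRNA, and p53 then switches on genes for cell cycle arrest, repair and cell death. Mdm2 is also a p53 target, which closes a negative feedback loop. In mouse liver, p53 is known for its part in the control of ploidy and of the response to genotoxic injury.

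Library totals were 31419443 to 36346220 gene counts at 0 h and 31684152 to 33093006 at 48 h, so that 3 counts, taken as the floor of a library, correspond to 0.0825 to 0.0955 CPM (counts scaled to a common library total). The cells carried hepatocyte markers at both times: 14 hepatocyte genes, including albumin (Alb), took 10.9% to 12.99% of the gene counts at 0 h and 8.58% to 9.79% at 48 h, with 1 gene higher and 5 lower. Markers of other cell types were present at low levels, and several lists differed between the time points. In TMM-normalized CPM, the sum over 11 Kupffer cell genes was 82.2 to 123.7 at 0 h and 120.2 to 146.1 at 48 h, with 3 genes higher. The sum over 12 endothelial genes was 239.2 to 378.8 at 0 h and 170.5 to 188.9 at 48 h, with 11 genes lower. The 10 stellate cell genes summed to 114.5 to 177.7 and then 78.7 to 98.4 (9 tested, 1 higher and 2 lower), the 8 cholangiocyte genes to 62.2 to 87.8 and then 84.3 to 109.0 (4 tested, 2 higher), and the 10 lymphocyte genes to 2.93 to 4.29 and then 1.599 to 2.38, with 1 gene tested, which was lower, and Cd3d at 0 in all libraries. The 9 neutrophil genes summed to 0.193 to 0.374 at 0 h and 9.82 to 21.3 at 48 h, but Mpo, Ltf and Retnlg were at 0 in all libraries and, apart from Prtn3 (singled out after its values were seen), the list held 4 to 9 counts per library at 0 h and 21 to 37 at 48 h. For comparison, 21.4% of all genes tested were called higher and 19.3% lower. The part of these cells in the results that follow was not tested.

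Most of these genes were higher in the regenerating liver. Of the 10 members, 8 were higher at 48 h, 1 (Bbc3) was lower and 1 (Mdm4) did not pass the test, at a Benjamini-Hochberg adjusted p under 0.05 by the edgeR quasi-likelihood fit over 17037 genes. Over all genes tested, 21.4% were called higher and 19.3% lower, or 3638 and 3288 genes, and library size in place of TMM gave 5308 and 2110. The median log2 fold change of the members was 1.17, beside a median of 0.00 (-0.0033) over all genes tested. The increases ran from 1.40-fold in Trp53 to 22.3-fold in Eda2r and 25.5-fold in Phlda3, genes that were barely detected at 0 h. All 48 h libraries were above all 0 h libraries in 9 members and below them in 1, beside 27.8% and 25% of all genes tested (52.7% in either direction). Phlda3 entered the test only through its 48 h libraries, so that only a rise of it could be seen. Eda2r reached 10 counts in 2 libraries at 0 h and so also needed a 48 h library to enter. Of the other 8 members, 6 were higher. Without 0 h replicate 2 the log2 fold changes of Phlda3 and Eda2r were 5.32 and 5.08, in place of 4.67 and 4.48. They were 4.39 and 4.12 without 0 h replicate 1, and 4.46 and 4.37 without 0 h replicate 3. In bulk samples, more cells that carry a transcript and more transcript per cell cannot be told apart.

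**Figure D1:**
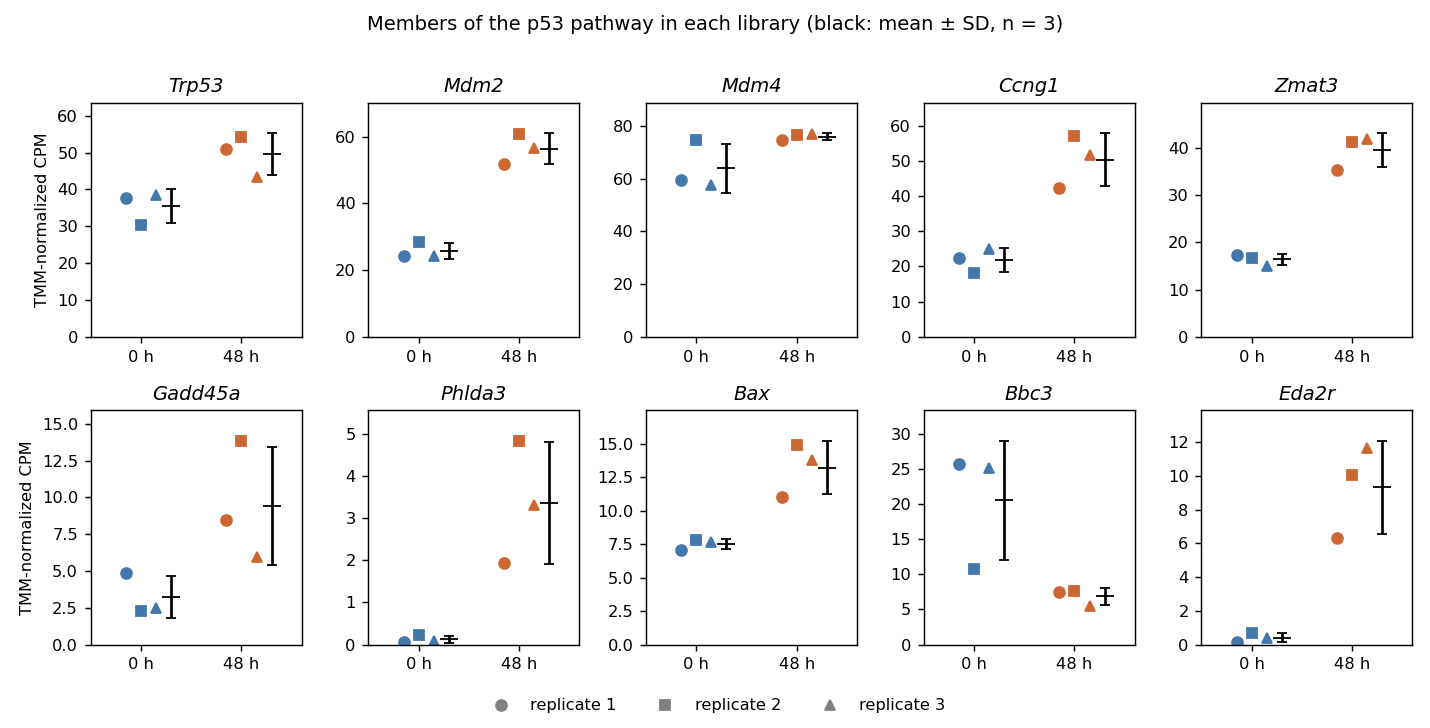
TMM-normalized CPM (vertical axis, from 0) of each member in the 3 libraries at 0 h (blue) and the 3 at 48 h after PHx (orange), with a marker shape for each replicate number and the mean ± SD in black. In 9 panels the 48 h libraries lie above those at 0 h, by a narrow margin in Mdm4, and in the Bbc3 panel they lie below them.

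Of the members, 3 have, in the 250 bases before their RefSeq transcription start and the 50 after it, a match to the consensus p53 response element, the 20-base pair of half-sites that the p53 tetramer binds. The search covered both strands, required the C and G of each CNNG core, allowed at most 3 mismatches elsewhere and no spacer. Promoter windows (RefSeq, GRCm38.p6) were on hand for 9 members in 12 windows, with none for Zmat3. Of all 32851 windows, 1.38% held a match. The sites are shown with the 4-base cores in capitals because they belong to members that moved in different ways.
Ccng1: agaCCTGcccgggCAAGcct
Bbc3: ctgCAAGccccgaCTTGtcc
Trp53: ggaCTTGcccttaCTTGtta
The Ccng1 site had 1 mismatch, a level that 0.0670% of the windows reached, and the sites of Bbc3 and Trp53 had 3. A perfect 10-base half-site stood in the windows of 5 members, the 2 sites of Ccng1 and Trp53 above holding one each, and in 8.36% of all windows. The other 3 were GAACTTGCCT in Mdm2, AGGCAAGCTT in Bax and GGGCTAGCCC in Gadd45a, where it lies in an annotated exon. These are matches of letters only, binding was not measured, and p53 sites outside these windows were not searched.

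Of p53 and its inhibitors, Trp53 and Mdm2 rose and Mdm4 did not pass the test. Trp53 (ENSMUSG00000059552.13, chromosome 11, 69580359 to 69591873, GRCm38, plus strand) stood at 37.7, 30.2 and 38.6 TMM-normalized CPM in replicates 1 to 3 at 0 h and at 51.1, 54.3 and 43.4 at 48 h. All 48 h libraries were above all 0 h libraries, although the lowest at 48 h and the highest at 0 h were close. The log2 fold change was 0.48 (SE 0.128, adjusted p = 0.0128 from edgeR), and it lost its call without 48 h replicate 2 (log2 fold change 0.41, adjusted p = 0.054). The matched site lies at positions -75 to -56 from its start, within the stretch chr11:69580256-69580358 that no annotated exon covers (plus strand, site in capitals).
Trp53 promoter: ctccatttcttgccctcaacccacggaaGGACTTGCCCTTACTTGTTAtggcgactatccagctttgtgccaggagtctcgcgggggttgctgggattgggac

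Mdm2 (ENSMUSG00000020184.15, chromosome 10, 117688875 to 117710758, minus strand), the ubiquitin ligase that targets p53, had 24.3, 28.5 and 24.4 CPM at 0 h and 51.8, 60.9 and 56.4 CPM at 48 h. The time points were far apart compared with the spread within them. Mdm2 rose 2.19-fold (log2 fold change 1.13, SE 0.111, adjusted p = 2.78e-05 in edgeR). Mdm4 (ENSMUSG00000054387.13, chromosome 1, 132959484 to 133030561, minus strand), its paralog without strong ligase activity of its own, had 59.4, 74.6 and 57.8 CPM at 0 h and 74.7, 76.6 and 76.8 CPM at 48 h. The libraries did not overlap, but replicate 2 at 0 h almost reached the 48 h level. The log2 fold change of Mdm4 was 0.25 (SE 0.118, adjusted p = 0.116 in edgeR), which did not pass the threshold. It passed without 0 h replicate 2 (log2 fold change 0.37, adjusted p = 0.0101) and with library size in place of TMM (0.45, adjusted p = 0.0162), a scaling that raised the median log2 fold change of all genes from 0.00 to 0.20.

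Ratios within a library do not depend on that scaling. Counts were divided by the exon length of each gene for this purpose. That length covers all annotated exons merged, 5083 bases for Mdm2 and 14798 for Mdm4. The level of a ratio therefore depends on these lengths, whereas its change between time points does not. In CPM, without this division, Mdm4 was above Mdm2 at both times. The ratio of Mdm2 to Mdm4 was 1.19, 1.11 and 1.23 at 0 h and 2.02, 2.32 and 2.14 at 48 h. The ratio of Mdm2 to Trp53 was 0.513, 0.749 and 0.502 at 0 h and 0.807, 0.893 and 1.04 at 48 h. Both were higher in each 48 h library than in each 0 h library. The ratios were picked with the genes' changes known and are given without a test.

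**Figure D2:**
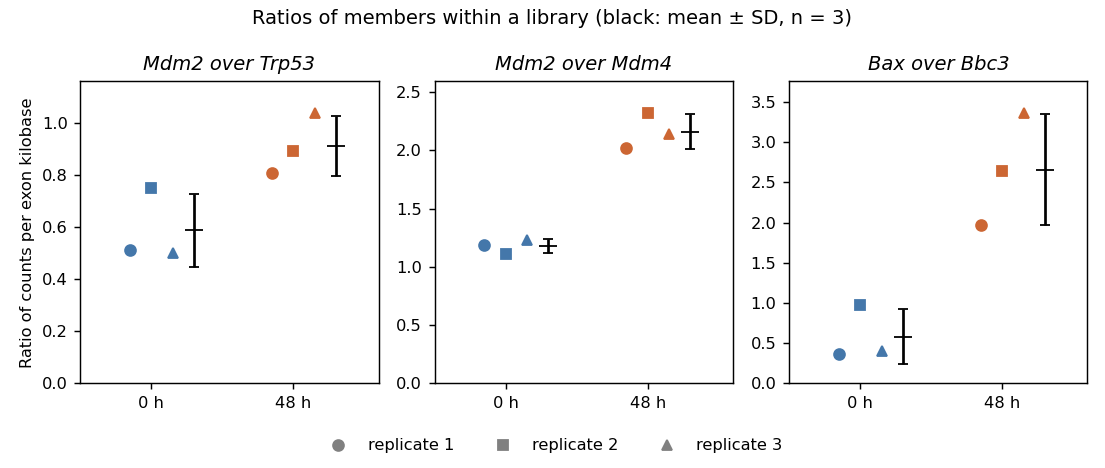
Ratios of counts per exon kilobase between pairs of members (vertical axis, from 0) in each library at 0 h (blue) and 48 h (orange), with the mean ± SD in black. Mdm2 over Mdm4 moved from 1.18 ± 0.0599 to 2.16 ± 0.149 and Bax over Bbc3 from 0.584 ± 0.338 to 2.66 ± 0.691 (SD, n = 3). The time points did not overlap in any panel. For Bax over Bbc3 this follows from the opposite moves of these genes in all libraries and adds nothing to them.

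Among the targets linked to growth arrest and to the handling of stress, Ccng1 and Zmat3 rose to a similar extent. Ccng1 (ENSMUSG00000020326.7, chromosome 11, 40748552 to 40755311, minus strand) encodes cyclin G1, a partner of protein phosphatase 2A that acts on Mdm2. It had 22.4, 18.1 and 24.9 CPM at 0 h and 42.3, 57.0 and 51.7 CPM at 48 h. Each 48 h value was well above each 0 h value. The rise was 2.31-fold (log2 fold change 1.21, SE 0.148, adjusted p = 0.000126 in edgeR). It is an established p53 target, and the site shown above is at positions -195 to -176 from the RefSeq start. The exon-free part of the window, chr11:40755312-40755536 on the minus strand, reads as follows, with the site in capitals.
Ccng1 promoter: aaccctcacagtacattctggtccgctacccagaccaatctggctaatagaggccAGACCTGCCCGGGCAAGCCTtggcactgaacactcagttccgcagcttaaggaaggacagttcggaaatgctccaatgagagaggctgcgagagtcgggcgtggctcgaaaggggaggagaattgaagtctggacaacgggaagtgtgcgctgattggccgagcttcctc

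Zmat3 (ENSMUSG00000027663.12, chromosome 3, 32334792 to 32366014, minus strand), a zinc finger protein that binds RNA, had 17.4, 16.8 and 15.1 CPM at 0 h and 35.4, 41.3 and 41.9 CPM at 48 h. Replicates were tight at both times. It rose 2.41-fold (log2 fold change 1.27, SE 0.113, adjusted p = 1.46e-05 in edgeR). Gadd45a (ENSMUSG00000036390.8, chromosome 6, 67035096 to 67037457, minus strand), a small protein that responds to growth arrest and DNA damage, had 4.87, 2.29 and 2.50 CPM at 0 h and 8.46, 13.8 and 5.94 CPM at 48 h. Its libraries did not overlap but varied widely within each time point. The log2 fold change of 1.55 carried an SE of 0.347 (adjusted p = 0.00498 in edgeR) and was 1.17 without 48 h replicate 2. E230016M11Rik, a transcript in the opposite orientation, covers 19.1% of the exon bases of Gadd45a, and whether reads were counted by strand is not given in the sources used here, so reads of the 2 genes may not be told apart. E230016M11Rik itself had 96 to 135 counts at 0 h and 36 to 39 at 48 h.

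Phlda3 (ENSMUSG00000041801.5, chromosome 1, 135766119 to 135769136, plus strand), a pleckstrin homology protein that restrains Akt signalling, went from the limit of detection to a low level. Its counts were 2, 7 and 3 at 0 h and 65, 173 and 116 at 48 h, or 0.0681, 0.226 and 0.0904 CPM and 1.93, 4.84 and 3.31 CPM. At 0 h the values lie near the floor of 3 counts in 2 libraries. The log2 fold change of 4.67 (SE 0.489, adjusted p = 4.25e-05 in edgeR) rests on few counts at 0 h. From the summed counts, 12 against 354, the ratio was 30.4 after scaling by library size (exact 95% interval 17.2 to 59.4, counting error only).

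The genes of cell death were split. Bax (ENSMUSG00000003873.11, chromosome 7, 45461697 to 45466898, minus strand), which permeabilizes the outer mitochondrial membrane, had 7.08, 7.80 and 7.62 CPM at 0 h and 11.02, 14.9 and 13.7 CPM at 48 h. The groups were clearly apart, with little spread at 0 h. Bax rose 1.76-fold (log2 fold change 0.82, SE 0.146, adjusted p = 0.00138 in edgeR). The gene Gm45808 on the same strand covers 12.2% of the exon bases of Bax and had 0 counts in each library.

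Bbc3 (ENSMUSG00000002083.13, chromosome 7, 16308393 to 16318205, plus strand) encodes Puma, a BH3-only protein that releases Bax from its restraint by BCL2 proteins. It had 25.7, 10.8 and 25.2 CPM at 0 h and 7.51, 7.58 and 5.51 CPM at 48 h. All 48 h libraries were below all 0 h libraries, and replicate 2 at 0 h stood well below the other 0 h libraries. Bbc3 fell by 1.58 on the log2 scale (SE 0.290, adjusted p = 0.0016 in edgeR), and its log2 fold change was -1.90 without that replicate. It was -1.40 without 0 h replicate 1 and -1.42 without 0 h replicate 3. The ratio of Bax to Bbc3 counts per exon kilobase was 0.371, 0.974 and 0.407 at 0 h and 1.98, 2.65 and 3.36 at 48 h. The site in the Bbc3 window stands at positions -97 to -78 from the first of its 3 RefSeq starts. The bases before that start, chr7:16309333-16309582 on the plus strand, are shown beside those of Ccng1 because both hold a matched site and the genes changed in opposite directions. They lie inside the GENCODE gene but in no annotated exon, and the site is in capitals.
Bbc3 promoter: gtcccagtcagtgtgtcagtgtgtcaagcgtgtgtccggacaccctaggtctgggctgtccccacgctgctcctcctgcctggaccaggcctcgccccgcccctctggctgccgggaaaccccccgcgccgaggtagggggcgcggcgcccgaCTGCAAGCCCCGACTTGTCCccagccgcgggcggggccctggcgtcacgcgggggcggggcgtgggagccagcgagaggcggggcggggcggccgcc

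Eda2r (ENSMUSG00000034457.10, chromosome X, 97333840 to 97377216, minus strand), a receptor of the tumour necrosis factor family that binds the A2 form of ectodysplasin, had 5, 22 and 12 counts at 0 h and 212, 359 and 408 counts at 48 h. In TMM-normalized CPM these are 0.170, 0.709 and 0.361 at 0 h and 6.30, 10.0 and 11.7 at 48 h. No 0 h library came near the 48 h range. The log2 fold change was 4.48 (SE 0.387, adjusted p = 1.16e-05 in edgeR), and the ratio of summed counts, 39 against 979, was 25.9 after scaling by library size (exact 95% interval 18.8 to 36.6, counting error only). The log2 fold changes of Phlda3 and Eda2r were larger than those of 98.9% and 98.8% of all genes tested, whereas those of Trp53 and Mdm4 were larger than those of 77.6% and 66.4%. The exon-free promoter bases of Eda2r and Phlda3, the 2 members with the greatest rise, are given because neither holds a match to the 20-base site at 3 mismatches or fewer. They span chrX:97377217-97377459 (minus strand) and chr1:135765835-135766084 (plus strand).
Eda2r promoter: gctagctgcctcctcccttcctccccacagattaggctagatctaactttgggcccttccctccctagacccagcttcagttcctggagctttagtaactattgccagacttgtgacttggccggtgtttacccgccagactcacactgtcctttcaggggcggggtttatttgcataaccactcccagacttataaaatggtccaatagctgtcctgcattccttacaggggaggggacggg
Phlda3 promoter: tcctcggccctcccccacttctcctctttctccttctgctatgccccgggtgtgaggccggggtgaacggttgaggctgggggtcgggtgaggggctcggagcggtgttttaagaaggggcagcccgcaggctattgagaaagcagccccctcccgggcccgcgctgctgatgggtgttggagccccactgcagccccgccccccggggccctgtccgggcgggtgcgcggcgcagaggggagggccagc

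**Figure D3:**
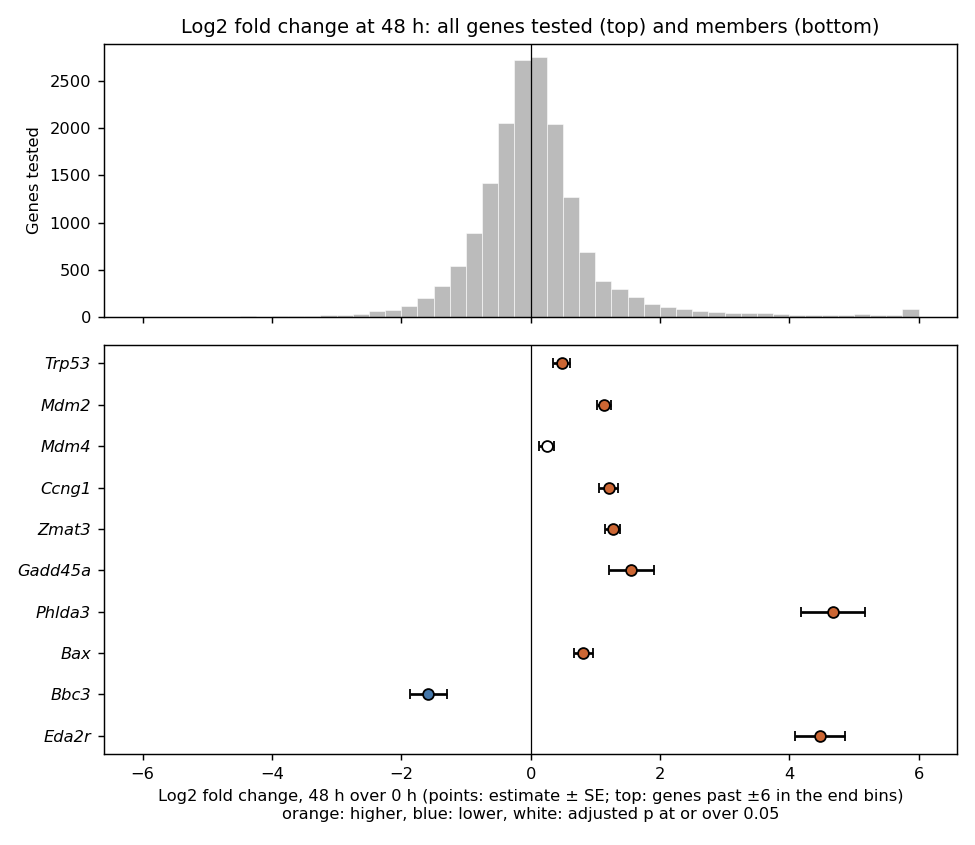
Log2 fold change at 48 h over 0 h (horizontal axis) of all 17037 genes tested (top, number of genes per bin) and of the 10 members (bottom, estimate ± SE). Phlda3 and Eda2r lie at 4.67 and 4.48, in the upper tail of all genes, 6 members lie between 0.48 and 1.55, Mdm4 at 0.25 did not pass the test and Bbc3 lies at -1.58.

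Levels of different genes were compared as RPKM, the TMM-normalized CPM divided by exon length in kilobases. That length covers all annotated exons of a gene merged, not an expressed transcript, so the order of the genes depends on it. At 0 h, Bbc3 at 9.69 ± 3.99 and Trp53 at 8.78 ± 1.14 RPKM (SD, n = 3) led the members and overlapped within their SD. Ccng1, Mdm2, Bax and Mdm4 followed between 6.21 and 4.32 RPKM, each overlapping the next, then Gadd45a at 1.83 ± 0.812 and Zmat3 at 1.44 ± 0.103, and Phlda3 and Eda2r were last at 0.0821 ± 0.0547 and 0.0702 ± 0.0464. At 48 h the order was Ccng1 at 14.3 ± 2.12, Trp53 at 12.3 ± 1.39 and Mdm2 at 11.1 ± 0.895 RPKM, of which neighbours overlapped within 1 SD. Bbc3 was then eighth at 3.23 ± 0.553 RPKM, within 1 SD of Zmat3 at 3.46 ± 0.312. Phlda3 at 2.16 ± 0.933 and Eda2r at 1.58 ± 0.467 RPKM remained the lowest by mean, although Phlda3 overlapped Bbc3 within 1 SD.

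The members also varied among the libraries of a time point. At 48 h, replicate 1 had the lowest level of 7 members (Mdm2, Mdm4, Bax, Phlda3, Ccng1, Eda2r and Zmat3) and the highest of none. Replicate 2 had the highest level of 7 members. At 0 h the lowest and highest values were spread over the libraries, with 4, 4 and 2 members at their lowest in replicates 1, 2 and 3. No test was made of this order, and the members share each library's scaling.

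Other known p53 targets were drawn up from general knowledge to set the members beside the wider pathway. Like the members, they were chosen with earlier results of these data known. Of 21 targets in arrest, repair and metabolism, 20 were tested, 6 were higher and 6 were lower, a median log2 fold change of 0.07. In either direction 60% were called, beside 40.7% of all genes tested (21.4% higher, 19.3% lower). Cdkn1a, the cyclin-dependent kinase inhibitor p21 and the best known p53 target, had 8.20, 6.22 and 8.13 CPM at 0 h and 71.2, 95.3 and 77.1 CPM at 48 h. It rose 10.8-fold (log2 fold change 3.43, SE 0.157, adjusted p = 1.19e-07 in edgeR). Ak1, an adenylate kinase, had 2 counts in each 0 h library and 11 to 15 at 48 h (log2 fold change 2.44, adjusted p = 0.00213 in edgeR), too few to fix the size of the change. Like Phlda3, it entered the test only through its 48 h libraries, so that only a rise could be called. The largest falls in this list were in Pltp, the phospholipid transfer protein, from 17.3 ± 6.72 to 4.70 ± 0.462 CPM (log2 fold change -1.88, adjusted p = 0.000187 in edgeR), and in Ephx1, the microsomal epoxide hydrolase, from 714.9 ± 140.1 to 421.4 ± 125.3 CPM (SD, n = 3; log2 fold change -0.76, adjusted p = 0.0216 in edgeR). The fall of Ephx1 lost its call with library size only (adjusted p = 0.0876) and without 0 h replicate 3 (adjusted p = 0.0848). Annotations in the opposite orientation share 19.3% of the exon bases of Pltp and 7.68% of those of Cdkn1a.

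Of 11 further targets in cell death, 10 were tested, 5 were higher and 1 was lower, with a median log2 fold change of 0.98. In either direction 60% were called, beside 40.7% of all genes tested (21.4% higher, 19.3% lower). Tnfrsf10b, a death receptor for the ligand TRAIL, had 17, 20 and 16 counts at 0 h and 259, 296 and 284 at 48 h (14.1-fold, log2 fold change 3.81, SE 0.199, adjusted p = 2.89e-07 in edgeR). Apaf1, the scaffold of the apoptosome, rose from 3.22 ± 0.0215 to 13.02 ± 1.19 CPM (SD, n = 3; adjusted p = 2.56e-06 in edgeR). Bid, a BH3-only protein, fell by 0.56 on the log2 scale (adjusted p = 0.00896 in edgeR), a call that was lost with library size only (adjusted p = 0.0759). Of the exon bases of Bid, 17.7% are shared with an annotation in the opposite orientation.

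Calls over all genes tested were 21.4% higher and 19.3% lower, or 40.7% in either direction. Of 24 regulators of p53, 23 were tested and 9 were higher, so that 39.1% were called. None was lower at an adjusted p under 0.05 in edgeR, DESeq2 or limma-voom, and 0 were lower at an unadjusted p under 0.05 in edgeR. The checkpoint kinases Chek1 and Chek2, which phosphorylate p53 after DNA damage, went from 0.619 ± 0.193 to 10.9 ± 0.638 CPM and from 1.41 ± 0.133 to 7.67 ± 1.16 CPM (SD, n = 3). Their log2 fold changes were 4.13 (SE 0.218, adjusted p = 3.07e-07) and 2.44 (SE 0.194, adjusted p = 6.02e-06) in the same edgeR fit. The median log2 fold change of the regulators was 0.18.

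Of 19 genes of the BCL2 family and the caspase cascade outside these lists, 18 were tested, 6 were higher and 4 were lower, with a median log2 fold change of 0.19. In either direction 55.6% were called, beside 40.7% of all genes tested (21.4% higher, 19.3% lower). The BH3-only genes of this list did not move together. Bmf had 12.4, 6.25 and 14.6 CPM at 0 h and 1.34, 1.99 and 1.69 CPM at 48 h (log2 fold change -2.73, SE 0.306, adjusted p = 6.96e-05 in edgeR), and Bik went from 3.82 ± 0.373 to 1.49 ± 0.408 CPM (SD, n = 3; log2 fold change -1.36, adjusted p = 0.00119 in edgeR). As in Bbc3, replicate 2 was the lowest of the 0 h libraries in Bmf. Bcl2l11, which encodes Bim, rose from 5.31 ± 0.539 to 8.03 ± 1.02 CPM (SD, n = 3; log2 fold change 0.60, adjusted p = 0.0124 in edgeR). Bad did not pass the test (log2 fold change 0.23, adjusted p = 0.264 in edgeR), and Hrk had too few counts to enter the test. Bcl2l11, Bad and Hrk are named after their values were seen. Cycs, which encodes cytochrome c, rose 2.09-fold (adjusted p = 0.000439 in edgeR).

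Of 10 relatives of the members, 6 were tested, 2 were higher and 2 were lower. The paralogs of Gadd45a moved apart: Gadd45b went from 1.01 ± 0.219 to 5.83 ± 2.57 CPM (log2 fold change 2.52, adjusted p = 0.000315 in edgeR), and Gadd45g from 40.4 ± 19.01 to 7.84 ± 3.39 CPM (SD, n = 3; log2 fold change -2.37, adjusted p = 0.000503 in edgeR). Phlda2, a paralog of Phlda3, rose from 0.333 ± 0.0654 to 1.82 ± 0.621 CPM (log2 fold change 2.44, adjusted p = 0.000302 in edgeR). With 12, 9 and 10 counts at 0 h, Phlda2 needed a 48 h library to enter the test, as Eda2r did. Phlda1, another paralog and named after its values were seen, went from 53.6 ± 18.5 to 28.5 ± 13.6 CPM (SD, n = 3; log2 fold change -0.91, adjusted p = 0.0415 in edgeR), with libraries that overlapped between the time points. This call was lost with DESeq2, with library size only and without 0 h replicate 1, 0 h replicate 3, 48 h replicate 1 or 48 h replicate 2, where Gadd45g was the 1 relative called lower. An annotation in the opposite orientation shares 32.97% of the exon bases of Phlda1. Over all genes tested, 40.7% were called in either direction, beside 60% of both target lists, 39.1% of the regulators, 55.6% of the BCL2 and caspase genes and 66.7% of the relatives.

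**Figure D4:**
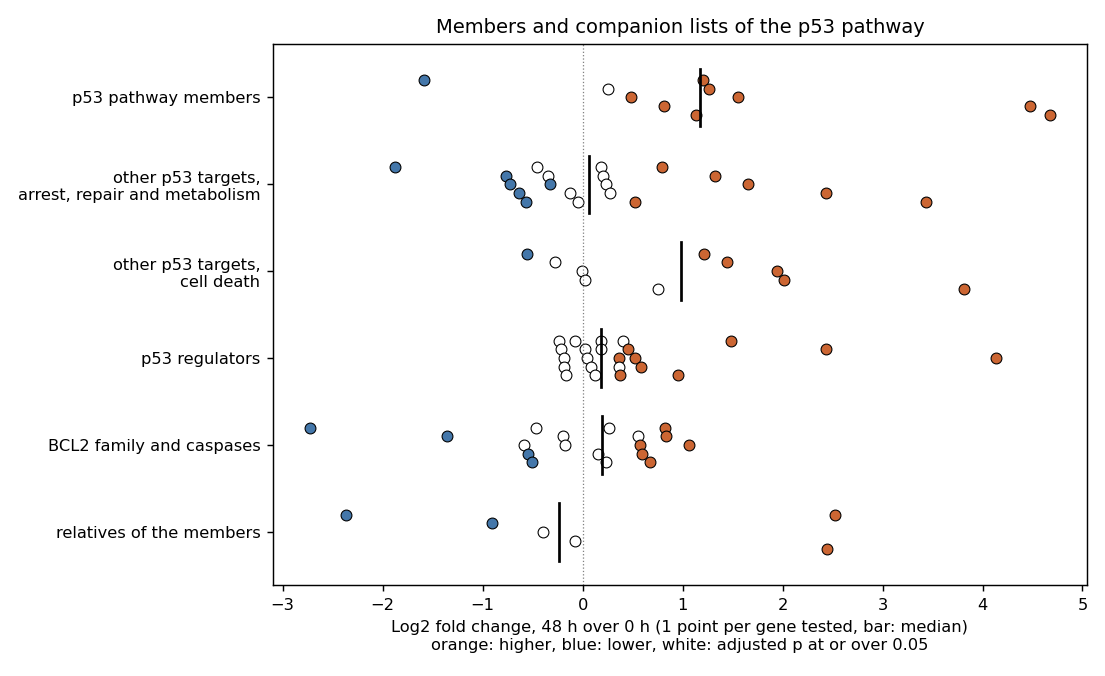
Log2 fold change at 48 h over 0 h (horizontal axis) of each gene tested among the members and in the 5 companion lists, with orange and blue for genes called higher and lower, white for genes not called and a bar at the median. The medians are 1.17 for the members, 0.07 and 0.98 for the target lists, 0.18 for the regulators, 0.19 for the BCL2 family and caspases and -0.23 for the relatives.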

How the data were processed

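The authors deposited raw read counts per gene for each of the 6 libraries, without normalization. The submitters' processing notes name FastQC 0.11.5, Trim Galore 0.6.4, STAR 2.6, HTSeq 0.12.4 and DESeq2 with the build mm10. The counting mode and strand setting are not given in the sources used here. All 55450 gene identifiers match GENCODE M21 (GRCm38), which gave names, coordinates and exon lengths.

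Libraries were grouped by the time point in their titles, 3 at 0 h and 3 at 48 h. Closing lines that name no gene stayed out of the totals, with 24.3% to 32.7% of reads on no gene and 4.27% to 5.29% ambiguous. A gene entered the test if 3 or more libraries held 10 or more counts of it. The quasi-likelihood fit of edgeR 4.0.16 (R 4.3.3) used TMM factors and time as the only term, with Benjamini-Hochberg adjustment over all genes that entered. The SE was taken from each log2 fold change and the square root of its F statistic. The fit was tested on simulated counts, where the share of false calls was above the 0.05 at which genes were called and many of the smaller changes were missed. Far fewer genes were changed there than were called in the data, so that share cannot be carried over to the calls here. No 2 libraries of a time point agreed within counting noise (the lowest mean chi-square over genes was 25.8), and none was merged.

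Alternatives were DESeq2 1.42.0, limma-voom (limma 3.58.1), other scalings and filters, a replicate block and leaving out each library. The members and lists were chosen with earlier results of these data known. Besides the members and Cdkn1a, the genes named are up to 2 with the greatest rise and 2 with the greatest fall per list, among genes with an adjusted p under 0.05 and no overlap between time points. Of the genes so picked, 1 is not reported here. Leaving out a 48 h library with 10 counts required in only 2 libraries was chosen after seeing the data.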

Additional observations from a re-analysis of the deposited data

How the results depend on the processing

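The count of members higher at 48 h was 8 and stayed at 8 or 9 under the alternatives that used all libraries, and 1 member was lower under each. Without 1 library at a time, 6 to 9 members were higher and 1 was lower. The lowest count was without 48 h replicate 2, where Trp53 missed the threshold and Phlda3 was not tested. Phlda3 left the test whenever a 48 h library was left out, and its log2 fold change was 4.30 to 4.93 there once 10 counts in 2 libraries were enough. None of the 26 genes picked by the naming rule reversed its direction, and 22 kept their call under each alternative run for them; the others were Trp53, Mdm4, Ephx1 and Bid. With library size only, 3 targets in arrest, repair and metabolism were lower in place of 6, 0 in cell death in place of 1, 2 BCL2 and caspase genes in place of 4 and 1 relative in place of 2, while 13 regulators in place of 9 and 8 arrest targets in place of 6 were higher. Among the relatives, DESeq2 called 1 gene lower, and a minimum of 50 counts left 1 called higher. Leaving out 1 library gave 6 to 9 higher regulators, 4 to 6 higher arrest targets, 2 to 5 lower BCL2 and caspase genes and 1 to 3 lower relatives. Over all genes tested, library size only gave 5308 higher and 2110 lower, in place of 3638 and 3288. Without 48 h replicate 2, 2649 were higher and 2540 lower, the fewest among the fits that left out 1 library. The cause of the moves in the lists was not tested, except that a higher minimum tests fewer genes.

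Same-numbered libraries did not deviate together (correlations of 0.03, -0.07 and -0.14). With the replicate block, 3237 genes were higher and 2884 lower, against 3638 and 3288, and 8 members were higher and 1 lower as before. The log2 ratio of the summed hepatocyte markers at 48 h over 0 h was -0.39 from shares of counts and -0.59 from TMM-normalized CPM. Depth limits Phlda3 and Ak1 at 0 h, which had 2 to 7 counts per library.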
